A study of Homo sapiens and Mus musculus with 100 samples.

Results

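The aldo-keto reductases described here are 10 genes, AKR1A1, AKR1B1, AKR1B10, AKR1C1, AKR1C2, AKR1C3, AKR1C4, AKR1D1, AKR7A2 and AKR7A3. They were taken by gene symbol from the 28035 genes that each human expression table lists, and each was listed in all 6 tables. The family was picked because AKR1B10 was already known to be high in vitamin B2 deficient HepG2 cells of the time course and of the AhR inhibitor experiment without inhibitor. Differences in those 2 experiments are therefore given as a description without p-values, except for the deprivation effect under AhR inhibitor, which that choice did not use.

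Messenger RNA was measured in HepG2, a human liver cancer line, and in Caco-2, a human colon cancer line, with 3 libraries in each of 26 groups and 78 libraries in all. In the time course, HepG2 cells were under vitamin B2 deficiency or control conditions for 3, 6, 9 or 12 days, and Caco-2 cells were compared in the same way at day 9. A further 3 HepG2 experiments at day 12 crossed deficiency with another factor, namely an AhR inhibitor, an inhibitor of IDO and TDO, or a guide RNA against AhR set against a control guide. A last HepG2 experiment at day 12 compared Kyn with DMSO, each with and without the AhR inhibitor. AhR, the aryl hydrocarbon receptor, is a transcription factor switched on by ligands, and IDO and TDO are the enzymes that open the ring of tryptophan on the way to kynurenine. The headers of the AhR inhibitor table give 10 uM for that inhibitor. Not given in the sources used here are the inhibitors' names, how much Kyn was used, where the guide cuts, and whether the guided cells are 1 clone or a pool. Nothing in the labels says that the 3 libraries of a group came from separate cultures, so p-values measure the spread between these libraries, which may be technical.

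Aldo-keto reductases are cytosolic enzymes that use NADPH to reduce aldehydes and ketones to alcohols, and they bind no flavin. Vitamin B2, riboflavin, is the source of FMN and FAD, the flavins on which many other oxidoreductases depend. In liver the family handles reactive lipid aldehydes, sugars, steroid hormones, bile acid intermediates and aflatoxin aldehydes. AKR1B10 and the AKR1C genes are known in human cells as targets of NRF2, the transcription factor of the antioxidant response.

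The libraries held 4049600 to 19428100 reads in the listed genes, recovered from the deposited values. The TPM of those genes summed to 359500 to 405213 per library. A set of 8 hepatocyte marker genes was detected in every library, at a sum of 5303 to 29155 TPM in HepG2 and 1418 to 2724 TPM in Caco-2, and 8 enterocyte markers summed to 13.2 to 35.7 TPM in HepG2 and 87.4 to 150 TPM in Caco-2. Of the hepatocyte sum in Caco-2, APOA1 made up 1173 to 2316 TPM and ALB 27.3 to 48.1 TPM. The fibroblast list summed there to 14.8 to 15.0 TPM in deprived cells and 12.2 to 13.2 TPM in controls. The endothelial list summed to at most 0.729 TPM in Caco-2. In HepG2 the fibroblast and endothelial lists summed to at most 1.75 and 0.783 TPM. The 5 leukocyte markers summed to 200 to 1113 TPM there, of which LYZ, lysozyme, made up 196 to 1110 TPM, while PTPRC, the pan-leukocyte marker CD45, had at most 0.144 TPM. The summed hepatocyte markers, and the leukocyte list with LYZ, were lower in deprived cells of the time course. At day 12 the hepatocyte markers came to 6870 to 7213 TPM in deprived cells and 26037 to 27585 TPM in controls, and at day 3 to 5618 to 5922 TPM in deprived cells and 6685 to 6718 TPM in controls, while the leukocyte list came to 423 to 430 TPM in deprived cells and 729 to 824 TPM in controls at day 12. In these bulk libraries fewer cells of a type and less RNA per cell cannot be told apart, and the part of these shifts in the results below was not tested. In the AhR inhibitor experiment, the column headers give another directory and date for the libraries with inhibitor than for those without, so the inhibitor and that difference cannot be told apart, and replicate 3 of the controls with inhibitor stood apart from its group. In the IDO/TDO experiment, 1.39% of all genes differed between deprived and control cells under the inhibitor, against 67.9% without it.

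The family did not move as a block. Of the 10 members 9 passed the filter on low values in 4 of the HepG2 tables, all but AKR7A3, and 8 did so in Caco-2 (not AKR1C4 and AKR1D1) and in the Kyn table (not AKR1C4 and AKR7A3). A gene was called when its adjusted p fell below 0.05 (limma on log2(TPM + 1), Benjamini-Hochberg over all genes of a table). In deprived cells of the time course 4 members were higher and 0 lower at day 3, where 4.74% of all genes were called, 4 and 1 at day 6, where 33% were, 5 and 2 at day 9, where 49.1% were, and 4 and 3 at day 12, where 52.4% were. With quantile normalization they were 4 and 2 at day 6, and with quantile or median scaling 4 and 3 at day 9. The lower member at day 6, AKR1D1, lost its call with a pseudocount of 0.1, no filter, plain empirical Bayes, a replicate block or the contrast's groups alone. It also lost it without any single control library, or without replicate 1 or 3 of the deprived cells. These counts describe the data the members were chosen on. Without inhibitor in the AhR inhibitor experiment, 5 were higher and 2 lower beside 61.5% of all genes, again as a description, and 4 and 3 with quantile or median scaling.

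In the comparisons that the choice did not use, 4 of 8 members rose and 2 fell in Caco-2, where 33.7% of all genes were called. Among those that rose, AKR1B10 passed the filter there through its deprived libraries alone. Under AhR inhibitor 4 of 9 rose and 3 fell with deprivation (57.5% of all genes), with the control guide 3 rose and 2 fell (60.7%), and with the AhR guide 4 rose and 2 fell (53.2%). Leaving out single libraries under AhR inhibitor gave 5 to 6 calls, always fewer than the full fit. AKR1C4, among the 3 that fell there, missed the filter without replicate 3 of the controls with inhibitor. Without inhibitor in the IDO/TDO experiment 6 were called higher and 2 lower (67.9%), but 2 of the 6, AKR1C1 and AKR1C3, change sign with median scaling and with voom on the recovered reads. The split of calls moved with the scaling in several comparisons. With median scaling it was 3 higher and 4 lower under AhR inhibitor, 3 and 3 in the IDO/TDO experiment and 3 and 5 with the control guide, and with voom 3 and 4 under AhR inhibitor, 4 and 5 in the IDO/TDO experiment and 2 and 4 with the control guide. Deprivation under the IDO/TDO inhibitor called 0 members by limma beside 1.39% of all genes, with 0 members at an unadjusted p below 0.05 and 0 by voom on the recovered reads. Kyn lowered 3 of 8 members and raised 0 (11.7%), and with AhR inhibitor it lowered 1 (10.8%). Those shares of all genes are the background for the members' counts.

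**Figure D1:**
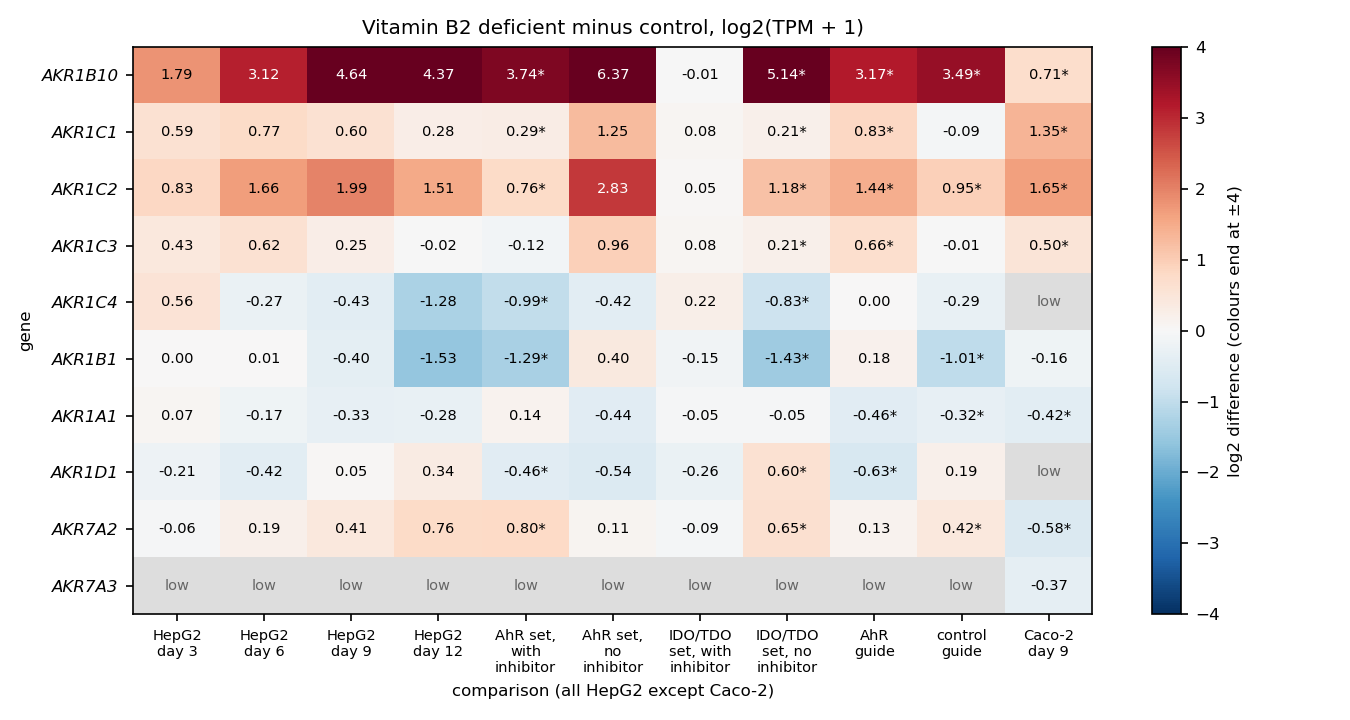
Difference in log2(TPM + 1) between vitamin B2 deficient and control cells for the 10 members (rows) in 11 comparisons (columns), as the limma estimate in each cell. Colours end at 4 on either side, an asterisk marks an adjusted p below 0.05 in comparisons that the choice of members did not use, and "low" marks genes under the filter. AKR1B10 and AKR1C2 are positive in every column but 1 for AKR1B10, the IDO/TDO inhibitor column at -0.012. The asterisk on AKR1B10 in Caco-2 is no separate support, since the gene passed the filter there through its deprived libraries alone.

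AKR1B10 reduces retinaldehyde and aldehydes from lipid peroxidation, and in liver it is best known from tumours. It lies on chromosome 7 at 134527592 to 134541414 (hg38, plus strand) as the files annotate it. Its levels in deprived and control libraries did not overlap at any time point. At day 3 it had 85.7, 77.9 and 88.4 TPM in deprived cells, against 23.9, 22.2 and 24.7 TPM in controls. At day 12 it had 136, 119 and 129 TPM in deprived cells, against 6.09, 4.54 and 5.15 TPM in controls. Both sides of the comparison moved over time: the mean in deprived cells went through 84.0, 90.3, 120.0 and 128 TPM at days 3, 6, 9 and 12, and in controls through 23.6, 9.56, 3.89 and 5.26 TPM. The log2 difference was 1.79 ± 0.11, 3.12 ± 0.11, 4.64 ± 0.11 and 4.37 ± 0.11 (SE) on those days. Within controls the level at day 12 was lower than at day 3 by a log2 difference of -1.98 ± 0.11, and within deprived cells it was higher by 0.60 ± 0.11 (SE).

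**Figure D2:**
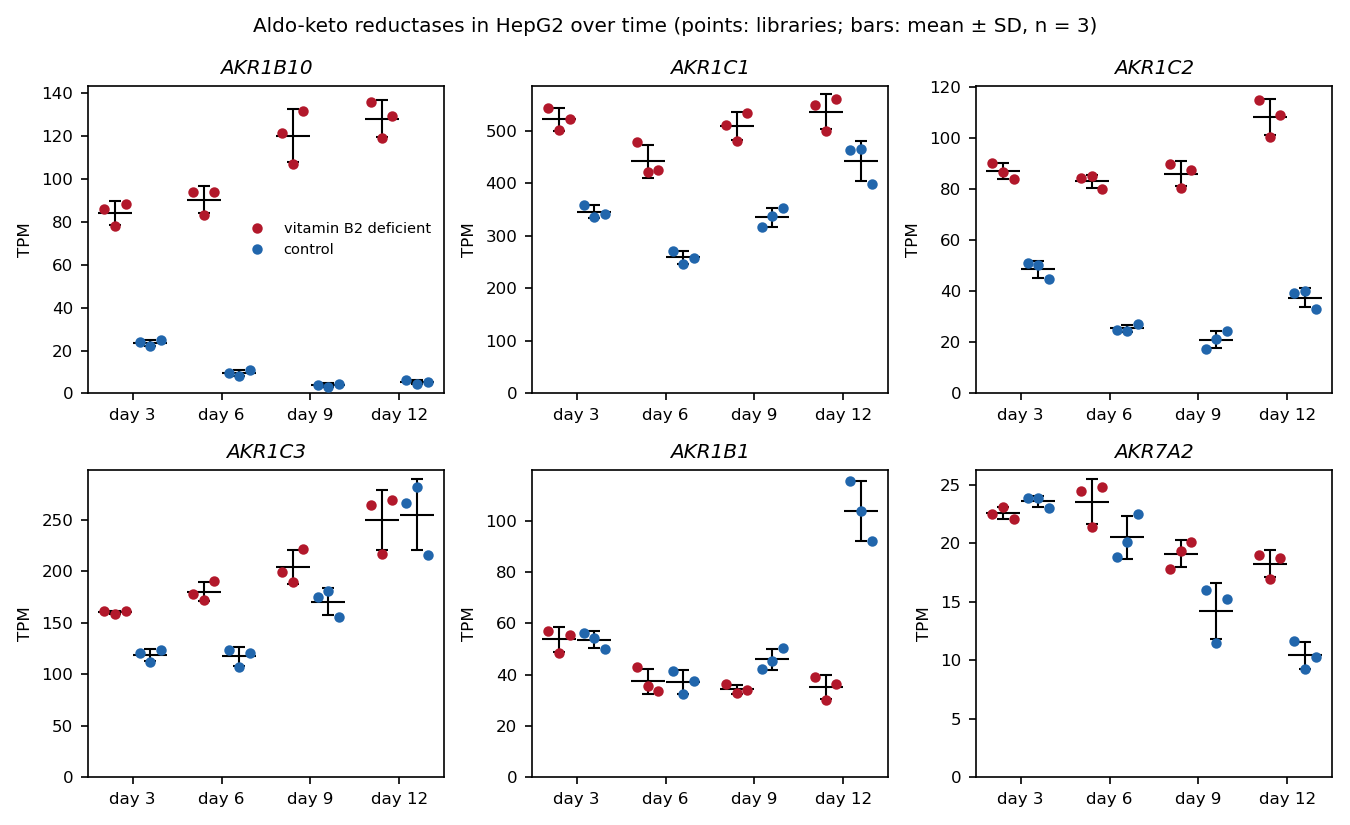
TPM of 6 members in HepG2 at days 3, 6, 9 and 12, deprived cells in red and controls in blue, with points for libraries and bars for mean ± SD (n = 3). AKR1B10 in deprived cells lies at 77.9 to 136 TPM and in controls at 3.12 to 24.7 TPM, AKR1C3 overlaps at day 12, and AKR1B1 separates downwards by day 12.

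The IDO/TDO experiment gave the same gene in separate libraries. AKR1B10 had 148, 141 and 151 TPM in deprived cells, against 2.85, 3.97 and 2.84 TPM in controls, a log2 rise of 5.14 ± 0.14 (SE, adjusted p = 8.09e-13). With the IDO/TDO inhibitor it had 4.05, 2.61 and 4.49 TPM in deprived cells, against 3.56, 3.28 and 4.27 TPM in controls, and the groups overlapped. The log2 difference there was -0.012 ± 0.14 (SE, adjusted p = 0.986), and the deprivation effect with inhibitor differed from that without by -5.15 ± 0.20 (SE, adjusted p = 1.12e-10). Beside this, the hepatocyte markers summed to 25385 to 26150 TPM in deprived cells with inhibitor and to 7376 to 7632 TPM without, so the deprived libraries with inhibitor stood close to controls in many genes. An effect of the inhibitor and an error in the labels of these libraries cannot be told apart from the files, which bears on every value given for deprived cells with the IDO/TDO inhibitor.

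**Figure D3:**
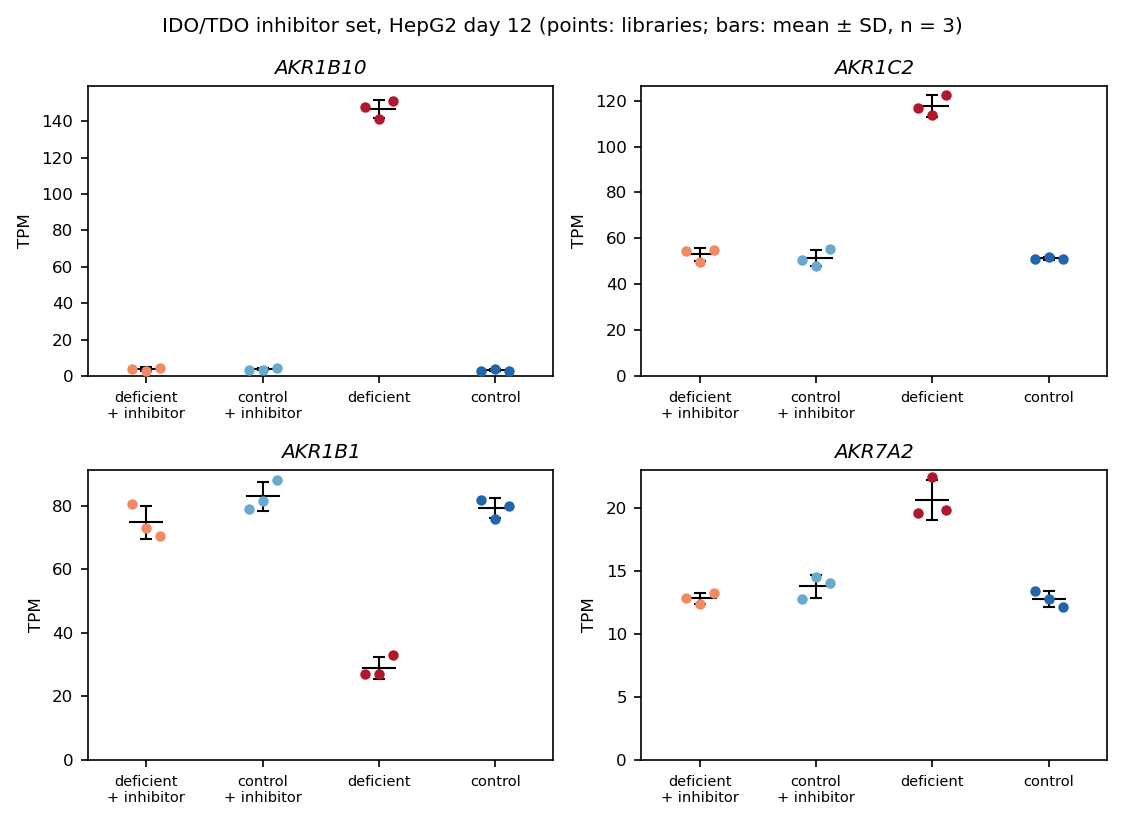
TPM of AKR1B10, AKR1C2, AKR1B1 and AKR7A2 in the IDO/TDO inhibitor experiment (HepG2, day 12), with points for libraries and bars for mean ± SD (n = 3). Deprived cells without inhibitor stand apart in all 4 genes, at 141 to 151 TPM for AKR1B10, while the deprived cells with inhibitor lie near the controls.

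AhR was targeted in 2 ways. With the AhR guide AKR1B10 had 219, 181 and 209 TPM in deprived cells, against 19.8, 24.2 and 20.9 TPM in controls, a log2 rise of 3.17 ± 0.10 (SE, adjusted p = 5.19e-11). With the control guide it had 185, 178 and 188 TPM in deprived cells, against 15.5, 13.3 and 18.0 TPM in controls, a rise of 3.49 ± 0.10 (SE, adjusted p = 8.77e-12). The difference between these effects was -0.31 ± 0.14 (SE, adjusted p = 0.171) and did not pass the test, but came to -0.42 with an adjusted p of 0.0407 (limma) without replicate 3 of the controls with the control guide. Under AhR inhibitor the gene had 159.8, 143 and 166 TPM in deprived cells, against 10.4, 9.03 and 13.3 TPM in controls, a rise of 3.74 ± 0.12 (SE, adjusted p = 3.77e-11), and 3.88 without replicate 3 of those controls. The libraries without inhibitor, of the other date, had 342, 284 and 302 TPM in deprived cells and 2.73, 2.68 and 2.81 TPM in controls, a log2 difference of 6.37 ± 0.12 (SE).

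The labels of the guide experiment were checked on AhR and its classic target CYP1A1. AHR itself had 7.94, 8.09 and 7.06 TPM with the AhR guide and 8.26, 6.09 and 6.07 TPM with the control guide in deprived cells, and 4.48, 4.76 and 4.88 TPM with the AhR guide and 4.54, 4.37 and 6.51 TPM with the control guide in controls, so its messenger RNA overlapped between guides in controls and deprived cells alike. A 3′ tag checks little here, since an edited gene can still be transcribed. CYP1A1, a drug-metabolising enzyme, had 1.83, 1.16 and 2.22 TPM with the AhR guide and 36.2, 32.0 and 32.4 TPM with the control guide in deprived cells. In controls it had 1.84, 1.90 and 1.92 TPM with the AhR guide and 4.45, 4.40 and 3.75 TPM with the control guide. The libraries labelled with the AhR guide were thus the low ones for CYP1A1. In the AhR inhibitor experiment deprived cells had 1.755, 1.329 and 1.819 TPM of CYP1A1 with inhibitor and 14.303, 15.203 and 14.325 TPM without. Controls there had 4.933, 4.571 and 2.538 TPM with inhibitor and 3.031, 2.114 and 2.901 TPM without, again from libraries of different dates.

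In Caco-2 AKR1B10 was near the detection limit, with 14 to 28 reads in deprived cells and 4 to 9 reads in controls. It had 1.43, 1.96 and 1.19 TPM in deprived cells, against 0.314, 0.761 and 0.570 TPM in controls. The log2 rise was 0.71 ± 0.18 (SE, adjusted p = 0.0114). No control reached the 1 TPM of the filter, so the gene was tested only because it was high in the deprived libraries. That p is therefore no separate support for the rise.

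AKR1C1, AKR1C2 and AKR1C3 make up a cluster on chromosome 10 with AKR1C4. AKR1C1 inactivates progesterone, AKR1C2 inactivates dihydrotestosterone, and AKR1C3 makes testosterone and prostaglandin F. The coding sequences of AKR1C1 and AKR1C2 are 98.0% identical over 969 bases, AKR1C1 and AKR1C3 91.7%, and AKR1C2 and AKR1C3 91.2%. Since a 3′ kit reads transcript ends, 50-base windows of the last 300 bases were looked up in the other family transcripts: 57.4% of those of AKR1C1 were found in AKR1C2 and 78.5% of those of AKR1C2 in AKR1C1, but 0% of those of AKR1C3. That last value is for the AKR1C3 transcript of the time course, Caco-2 and AhR inhibitor tables, since the one named in the other tables was not searched. Only exact matches of 50 bases were counted, so reads shorter than that could fit several copies more often than these shares show. The counting of reads that fit both copies is not given in the sources used here, so the split between AKR1C1 and AKR1C2 is uncertain.

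The promoters of AKR1C1 and AKR1C2 are shown because both genes moved in Caco-2 and with Kyn, with that of AKR1C3 beside them. Each is 300 bases from RefSeq (GRCh38.p14), 250 before and 50 after the annotated start, and capitals mark bases that differ from AKR1C1 in a pairwise alignment:
AKR1C1, chr10:4963165-4963464, plus strand: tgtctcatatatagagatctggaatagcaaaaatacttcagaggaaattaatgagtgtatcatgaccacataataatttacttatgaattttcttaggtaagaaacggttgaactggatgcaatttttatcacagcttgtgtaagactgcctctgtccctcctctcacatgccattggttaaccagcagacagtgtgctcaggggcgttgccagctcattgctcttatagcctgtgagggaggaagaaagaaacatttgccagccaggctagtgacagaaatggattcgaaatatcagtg
AKR1C2, chr10:5003808-5004107, minus strand: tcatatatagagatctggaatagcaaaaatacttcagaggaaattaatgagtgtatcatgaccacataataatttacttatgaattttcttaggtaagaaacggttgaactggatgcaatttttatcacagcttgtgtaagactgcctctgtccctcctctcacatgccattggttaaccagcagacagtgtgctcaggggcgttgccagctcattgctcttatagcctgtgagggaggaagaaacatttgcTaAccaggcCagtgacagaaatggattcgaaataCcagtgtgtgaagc
AKR1C3, chr10:5094164-5094463, plus strand: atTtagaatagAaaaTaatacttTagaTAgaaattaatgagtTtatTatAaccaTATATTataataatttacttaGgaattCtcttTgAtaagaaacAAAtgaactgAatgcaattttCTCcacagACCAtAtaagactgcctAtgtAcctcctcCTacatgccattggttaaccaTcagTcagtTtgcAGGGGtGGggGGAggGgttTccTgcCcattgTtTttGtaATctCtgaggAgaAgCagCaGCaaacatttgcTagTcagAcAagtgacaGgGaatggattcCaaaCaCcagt
The AKR1C2 window was 97.3% identical to that of AKR1C1, with 4 substituted and 4 missing bases, and the AKR1C3 window 73.7%. That window is for the AKR1C3 transcript of the time course, Caco-2 and AhR inhibitor tables, and the window near the start of the transcript in the IDO/TDO, guide and Kyn tables, chr10:5048531-5048830, was 76.9% identical. The transcript that the files use for AKR1C2 starts upstream, at 5018033, so this window lies inside that gene model.

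AKR1C2 separated deprived from control cells at every time point. It had 90.5, 87.0 and 84.1 TPM in deprived cells at day 3, against 51.0, 50.2 and 44.7 TPM in controls, and 115, 101 and 109 TPM in deprived cells at day 12, against 39.2, 40.3 and 33.2 TPM in controls. The log2 difference was 0.83 ± 0.089, 1.66 ± 0.089, 1.99 ± 0.089 and 1.51 ± 0.089 (SE) at days 3, 6, 9 and 12. For AKR1C1, which had 544, 500.5 and 522 TPM in deprived cells at day 3 against 359, 335 and 342 TPM in controls, it was 0.59 ± 0.066, 0.77 ± 0.066, 0.60 ± 0.066 and 0.28 ± 0.066 (SE). AKR1C3 had 264, 217 and 269.6 TPM in deprived cells at day 12, against 267, 282 and 216 TPM in controls, and the groups overlapped. Its log2 difference was 0.43 ± 0.091 at day 3 and -0.025 ± 0.091 (SE) at day 12. Over the copies together the summed level was 769.7 ± 24.9 TPM in deprived cells at day 3 and 513 ± 16.7 TPM in controls, and at day 12 895 ± 68.1 TPM in deprived cells and 735 ± 75.8 TPM in controls (SD, n = 3 each). TPM divides reads by the annotated length, 1368 bases for AKR1C1, 3592 for AKR1C2 and 1213 for AKR1C3. A read thus counts for least in AKR1C2, and the sum, here and in Caco-2, still depends on how shared reads were split.

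In Caco-2 all of the AKR1C copies that passed the filter rose. AKR1C1 had 388, 349 and 375 TPM in deprived cells, against 153, 139.7 and 141 TPM in controls, a log2 rise of 1.35 ± 0.058 (SE, adjusted p = 1.64e-07). AKR1C2 had 209, 190.4 and 197 TPM in deprived cells, against 67.5, 60.1 and 59.9 TPM in controls, a rise of 1.65 ± 0.064 (SE, adjusted p = 9.92e-08). AKR1C3 rose less, by 0.50 ± 0.051 (SE, adjusted p = 5.12e-05), with 253, 239 and 244 TPM in deprived cells and 177, 177 and 165 TPM in controls. No group overlapped its control, and the summed level was 814 ± 36.1 TPM in deprived cells and 380.1 ± 16.2 TPM in controls (SD, n = 3 each). The hepatocyte markers summed to 1418 to 1605 TPM in deprived Caco-2 cells and 2591 to 2724 TPM in controls, and the enterocyte markers to 87.4 to 93.9 TPM in deprived cells and 142 to 150 TPM in controls, and their part in the Caco-2 results was not tested. Whether the rises differ between Caco-2 and HepG2 was not tested, since the tables were made separately.

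AKR1C2 was also higher in deprived cells of the IDO/TDO experiment. AKR1C2 had 117, 114 and 123 TPM in deprived cells, against 50.9, 52.0 and 51.1 TPM in controls, a log2 rise of 1.18 ± 0.064 (SE, adjusted p = 1.92e-10). With the inhibitor it had 54.3, 49.8 and 54.8 TPM in deprived cells and 50.7, 48.1 and 55.2 TPM in controls, and the effects differed by -1.13 ± 0.090 (SE, adjusted p = 5.13e-08). That difference was called for 6 of 9 members, 2 higher and 4 lower, and for 53.7% of all genes, with 3 and 4 under median scaling and 5 and 4 with voom. In the same libraries the median of all genes was 0.30 higher in deprived cells on the log2 scale. AKR1C1 was called as higher by 0.21 ± 0.047 (SE, adjusted p = 0.000968) and AKR1C3 by 0.21 ± 0.051 (SE, adjusted p = 0.00209), which is -0.085 and -0.090 relative to that median. Both change sign when libraries are scaled to a common median, to -0.097 and -0.10, and with voom on the recovered reads, to -0.15 and -0.15, so no direction can be given for them there.

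The AhR guide changed the AKR1C genes in controls. AKR1C1 had 345, 389.6 and 417 TPM with the AhR guide, against 582, 634 and 508 TPM with the control guide, and fell by 0.58 ± 0.077 (SE, adjusted p = 6.11e-05) on the log2 scale. AKR1C2 fell by 0.65 ± 0.083 (SE, adjusted p = 4.25e-05) and AKR1C3 by 0.74 ± 0.058 (SE, adjusted p = 7.88e-07), with AKR1C3 at 144, 147 and 155 TPM with the AhR guide and 258, 262 and 227 TPM with the control guide. Across this comparison 9 members were called, 4 higher and 5 lower, beside 36.7% of all genes. Against those lower controls deprivation raised AKR1C1 with the AhR guide, to 693, 675 and 679 TPM, by 0.83 ± 0.077 (SE, adjusted p = 9.67e-07), whereas with the control guide it had 546, 517 and 549.9 TPM in deprived cells and differed by -0.090 ± 0.077 (SE, adjusted p = 0.326), or by -0.18 with an adjusted p of 0.0407 (limma) without replicate 3 of its controls. AKR1C1 with the control guide was also called lower with median scaling (-0.29, adjusted p = 0.0154, limma) and voom (-0.34, adjusted p = 0.00223). The difference between the effects was 0.92 ± 0.11 (SE, adjusted p = 0.000121) for AKR1C1, 0.49 ± 0.12 (SE, adjusted p = 0.0133) for AKR1C2 and 0.67 ± 0.082 (SE, adjusted p = 0.000176) for AKR1C3, and it was called for 14.4% of all genes. In deprived cells the guides differed by 0.34 ± 0.077 (SE, adjusted p = 0.01) for AKR1C1, where 12% of all genes were called. Relative to the median of all genes, 0.15 with the AhR guide and 0.20 with the control guide, the deprivation effects on AKR1C1 were 0.68 and -0.29. The hepatocyte markers summed to 7524 to 7931 TPM in deprived cells and 19960 to 21238 TPM in controls with the AhR guide, and to 6248 to 6541 TPM in deprived cells and 25561 to 26434 TPM in controls with the control guide.

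**Figure D4:**
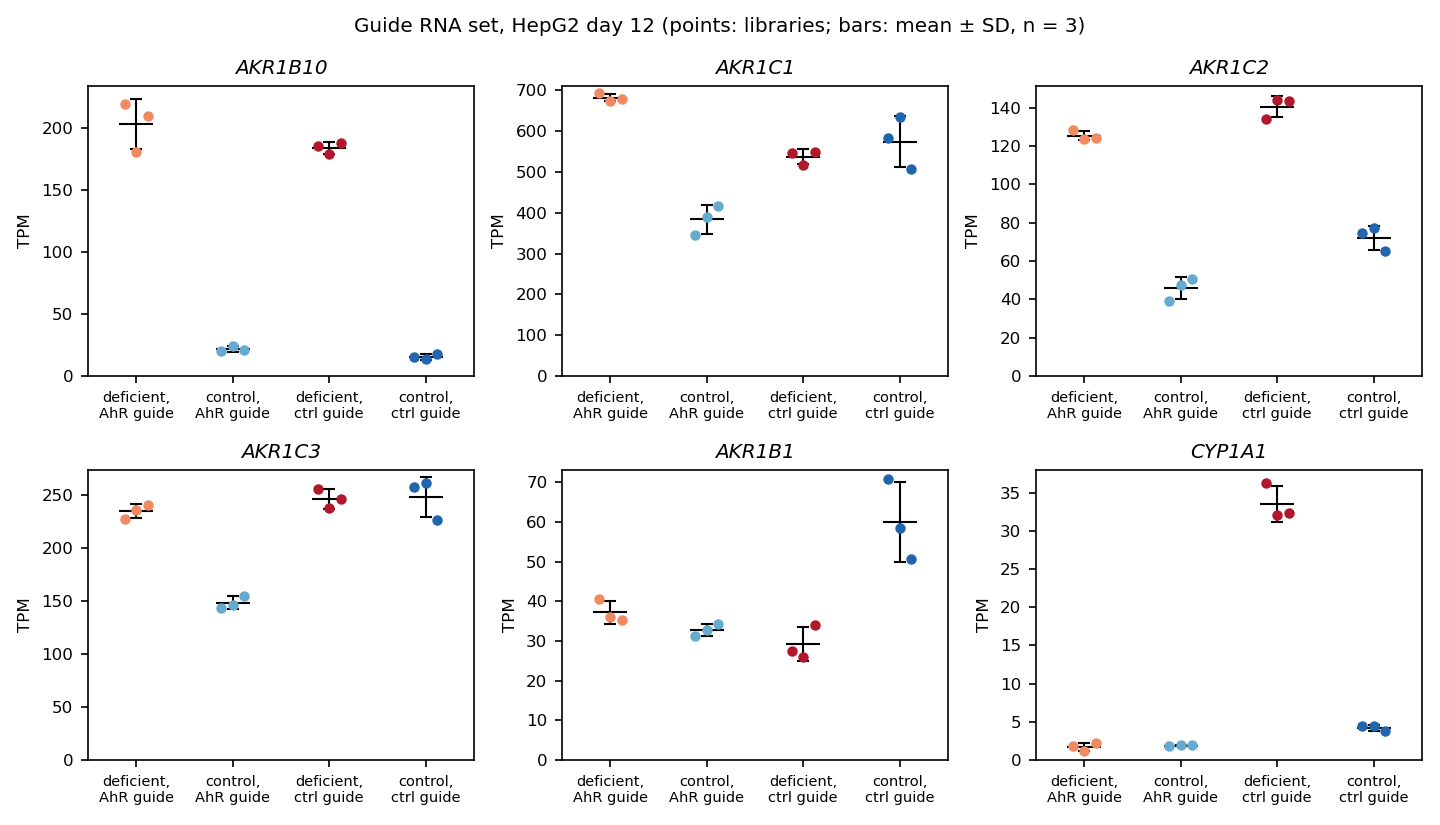
TPM of 5 members and CYP1A1 in the guide RNA experiment (HepG2, day 12), with points for libraries and bars for mean ± SD (n = 3). AKR1C1, AKR1C2 and AKR1C3 are lowest in controls with the AhR guide, and AKR1B10 lies at 178 to 219 TPM in deprived cells with either guide.

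Under AhR inhibitor AKR1C2 rose with deprivation by 0.76 ± 0.13 (SE, adjusted p = 0.000212), with 77.4 ± 7.58 TPM in deprived cells and 45.7 ± 8.51 TPM in controls (SD, n = 3 each). AKR1C1 differed by 0.29 ± 0.10 (SE, adjusted p = 0.0208), a call lost without replicate 3 of the controls with inhibitor (0.18, adjusted p = 0.069, limma) and without replicate 1 or 3 of the deprived cells with inhibitor (0.29 and 0.23, adjusted p = 0.053 and 0.0887). The median of all genes stood at 0.24, which leaves 0.047 for AKR1C1, and AKR1C3 differed by -0.12 ± 0.065 (SE, adjusted p = 0.139), or -0.16 with an adjusted p of 0.0274 without that control replicate 3. AKR1C3 was called lower there with quantile normalization (-0.19, adjusted p = 0.0269, limma), median scaling (-0.37, adjusted p = 0.00247) and voom (-0.40, adjusted p = 0.000234), while AKR1C1 came to 0.037 with median scaling and 0.011 with voom and was not called. Without inhibitor, in the libraries of the other date, the log2 differences were 2.83 ± 0.13 for AKR1C2, 1.25 ± 0.10 for AKR1C1 and 0.96 ± 0.065 (SE) for AKR1C3.

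Kyn lowered AKR1C1 and AKR1C2. AKR1C1 had 98.9, 96.8 and 107 TPM with Kyn, against 226, 199 and 248 TPM with DMSO, a log2 difference of -1.14 ± 0.11 (SE, adjusted p = 6.14e-05). AKR1C2 had 11.1, 9.34 and 10.0 TPM with Kyn, against 22.2, 21.2 and 23.0 TPM with DMSO, a difference of -1.05 ± 0.083 (SE, adjusted p = 2.81e-06). AKR1C3 had 216, 244 and 247 TPM with Kyn and 228, 218 and 231 TPM with DMSO, a difference of 0.059 ± 0.059 (SE, adjusted p = 0.559), and the groups overlapped. With AhR inhibitor present, AKR1C1 had 219.9, 195 and 270.0 TPM with Kyn and 197, 216 and 233 TPM with DMSO, and AKR1C2 had 20.7, 21.2 and 24.0 TPM with Kyn and 22.0, 19.7 and 21.9 TPM with DMSO. Those groups overlapped, and the inhibitor changed the Kyn effect by 1.22 ± 0.16 (SE, adjusted p = 0.000766) for AKR1C1 and 1.10 ± 0.12 (SE, adjusted p = 6.87e-05) for AKR1C2, where 8.94% of all genes were called. CYP1A1 had 1.775, 2.085 and 2.463 TPM with Kyn and 1.858, 1.505 and 1.837 TPM with DMSO, and these groups overlapped. With AhR inhibitor it had 2.273, 1.63 and 3.229 TPM with Kyn and 0.829, 1.034 and 1.332 TPM with DMSO. Whether AhR had a part in the Kyn values was not tested.

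Within the Kyn experiment the inhibitor alone called 0 of 8 members in DMSO-treated cells by limma, 0 at an unadjusted p below 0.05 and 0 by voom, beside 0% of all genes after adjustment and 4.41% before it. In Kyn-treated cells it raised AKR1C1 by 1.16 ± 0.11 (SE, adjusted p = 3.15e-05) and AKR1C2 by 1.04 ± 0.083 (SE, adjusted p = 1.83e-06), where 21.9% of all genes were called. AKR1B10 had 1.65, 1.25 and 1.83 TPM with Kyn, against 3.23, 3.07 and 2.19 TPM with DMSO, a difference of -0.57 ± 0.15 (SE, adjusted p = 0.0251) at 16 to 22 reads with Kyn and 29 to 35 with DMSO. The call was lost without any of 4 libraries, Kyn replicates 1 and 2 and DMSO replicates 1 and 2, with log2 differences of -0.59 to -0.47 and adjusted p of 0.057 to 0.0949 (limma). With AhR inhibitor present the difference was -0.56 ± 0.15 (SE, adjusted p = 0.0305), also lost without any of 4 libraries, Kyn replicates 1 and 3 and DMSO replicates 1 and 2, at adjusted p of 0.0719 to 0.112 (limma). The hepatocyte markers summed to 12925 to 13855 TPM with Kyn and 13384 to 14206 TPM with DMSO, but with AhR inhibitor to 16173 to 17668 TPM with Kyn and 13310 to 13940 TPM with DMSO. The part of that shift in the values for Kyn with inhibitor was not tested.

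**Figure D5:**
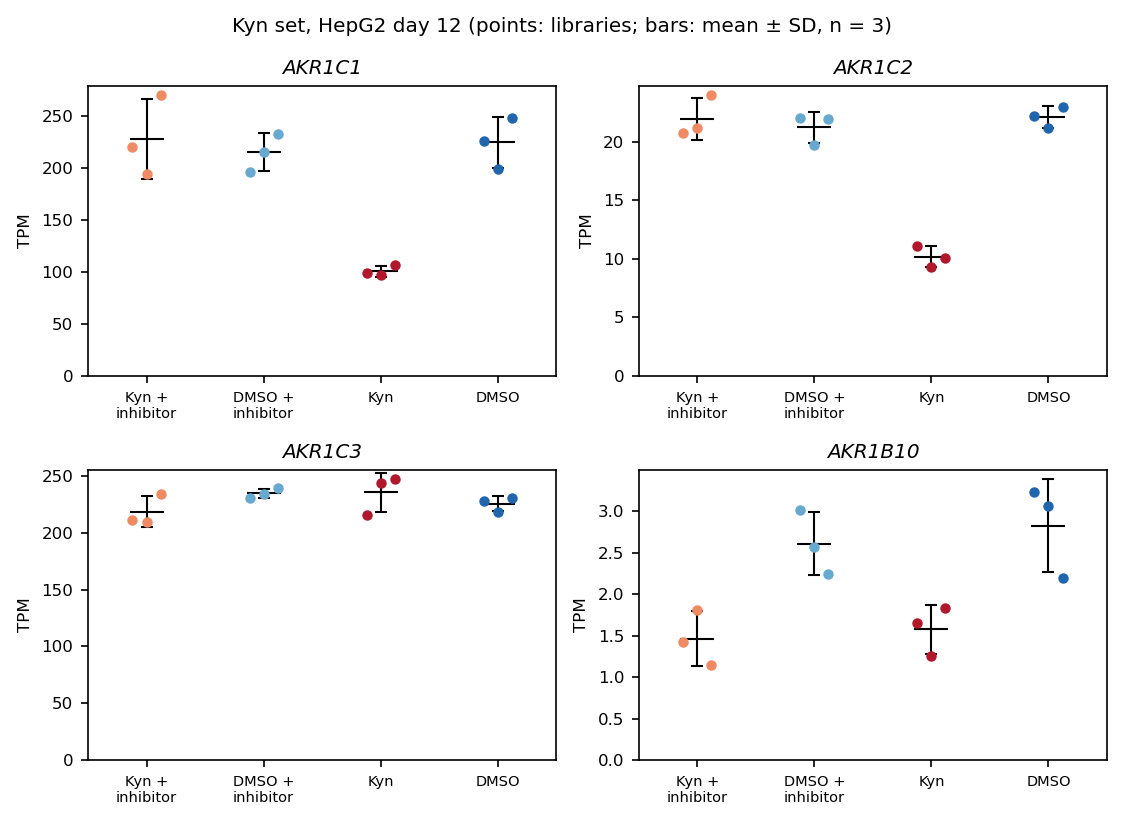
TPM of AKR1C1, AKR1C2, AKR1C3 and AKR1B10 in the Kyn experiment (HepG2, day 12), with points for libraries and bars for mean ± SD (n = 3). AKR1C1 lies at 96.8 to 107 TPM with Kyn and at 195 to 270.0 TPM in the other groups, and AKR1C3 overlaps in all 4 groups.

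AKR1B1 is aldose reductase, which turns glucose into sorbitol, and it lies on chromosome 7 at 134442350 to 134459192 (hg38, minus strand). At days 3 and 6 its deprived and control libraries overlapped, with log2 differences of 0.0026 ± 0.11 and 0.0091 ± 0.11 (SE). At day 12 it had 39.3, 30.0 and 36.4 TPM in deprived cells, against 115, 104 and 92.0 TPM in controls, a log2 difference of -1.53 ± 0.11 (SE). Controls changed most: within them the day 12 level was higher than that of day 3 by 0.94 ± 0.11, and within deprived cells lower by -0.60 ± 0.11 (SE).

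The same direction was tested in other libraries. AKR1B1 in the IDO/TDO experiment had 27.0, 27.0 and 33.0 TPM in deprived cells, against 81.9, 76.0 and 80.0 TPM in controls, a difference of -1.43 ± 0.079 (SE, adjusted p = 2.67e-10), and with inhibitor the effect differed by 1.28 ± 0.11 (SE, adjusted p = 1.57e-07). With the control guide it had 27.6, 26.0 and 34.1 TPM in deprived cells, against 70.8, 58.6 and 50.6 TPM in controls, and fell by 1.01 ± 0.12 (SE, adjusted p = 7.08e-06) on the log2 scale. With the AhR guide the deprived cells had 40.6, 36.1 and 35.2 TPM and the controls 31.2, 32.7 and 34.3 TPM, a difference of 0.18 ± 0.12 (SE, adjusted p = 0.206), and the effects differed by 1.19 ± 0.16 (SE, adjusted p = 0.000539). Between guides the controls differed by -0.84 ± 0.12 (SE, adjusted p = 0.000108). The deprived cells did not overlap between guides and were higher with the AhR guide by 0.35, which was not called in the main fit. That difference was called with the filter of 5 TPM (adjusted p = 0.0498, limma). It came to 0.46 (adjusted p = 0.0248, limma) without replicate 3 of the deprived cells with the control guide. Under AhR inhibitor it fell with deprivation by 1.29 ± 0.15 (SE, adjusted p = 1.22e-05), while without inhibitor, in the libraries of the other date, the log2 difference was 0.40 ± 0.15 (SE), with 49.5, 42.1 and 47.5 TPM in deprived cells and 33.1, 32.0 and 39.8 TPM in controls. Without inhibitor the median of all genes stood at 0.23. The AKR1B1 difference there came to 0.20 with quantile normalization, 0.18 with median scaling and 0.13 with voom, and none of these was called. In Caco-2 the difference was -0.16 ± 0.11 (SE, adjusted p = 0.262).

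AKR1A1 is an aldehyde reductase of broad substrate range. Its levels over all 78 libraries were 12.3 to 45.0 TPM. In deprived cells of the time course the log2 difference was -0.33 ± 0.074 at day 9 and -0.28 ± 0.074 (SE) at day 12, with 17.7, 14.7 and 14.0 TPM in deprived cells and 19.8, 18.4 and 18.6 TPM in controls at day 12. It fell with deprivation by 0.46 ± 0.10 (SE, adjusted p = 0.00134) with the AhR guide and by 0.32 ± 0.10 (SE, adjusted p = 0.0124) with the control guide on the log2 scale. The call with the control guide was lost without replicate 3 of the controls (-0.22, adjusted p = 0.0581, limma) or replicate 2 of the deprived cells (-0.25, adjusted p = 0.0615). In Caco-2 it had 14.1, 16.3 and 12.3 TPM in deprived cells, against 17.5, 21.6 and 18.8 TPM in controls, a difference of -0.42 ± 0.11 (SE, adjusted p = 0.0155). That call was lost without replicate 2 of the controls (-0.34, adjusted p = 0.0564, limma) or replicate 3 of the deprived cells (-0.33, adjusted p = 0.0582). In the IDO/TDO experiment the difference was -0.054 ± 0.073 (SE, adjusted p = 0.526), and the groups overlapped. Other scalings called it lower there, by -0.32 with quantile normalization (adjusted p = 0.00109, limma), -0.36 with median scaling (adjusted p = 0.000559) and -0.41 with voom (adjusted p = 2.04e-05).

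AKR1C4 and AKR1D1 act in liver on steroids and bile acid intermediates, and both had few reads. AKR1C4 reached at most 3.56 TPM and 62 reads in any library. At day 12 of the time course it had 0.862, 0.666 and 0.355 TPM in deprived cells, against 3.56, 2.90 and 2.36 TPM in controls, a log2 difference of -1.28 ± 0.18 (SE). Within controls the day 12 level was higher than that of day 3 by 1.87, and within deprived cells by 0.035. The deprivation difference was 0.56 at day 3, -0.27 at day 6 and -0.43 at day 9. AKR1C4 was not called at day 3 in the main fit, but was called higher there with a pseudocount of 0.1 (2.14) and with voom (2.99). It had in the IDO/TDO experiment 0.427, 1.03 and 0.524 TPM in deprived cells, against 1.68, 1.49 and 2.71 TPM in controls, a difference of -0.83 ± 0.15 (SE, adjusted p = 0.000176), and with inhibitor the effect differed by 1.05 ± 0.22 (SE, adjusted p = 0.000771).

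AKR1D1, the reductase that shapes the steroid ring of bile acids, reached at most 5.31 TPM. It had 3.07, 3.20 and 2.36 TPM in deprived cells of the IDO/TDO experiment, against 1.45, 1.49 and 1.72 TPM in controls, a difference of 0.60 ± 0.12 (SE, adjusted p = 0.000537), or 0.30 relative to the median of all genes. The AhR guide moved its controls: it had 5.31, 4.49 and 5.12 TPM with the AhR guide, against 1.51, 1.05 and 2.95 TPM with the control guide, a rise of 1.13 ± 0.18 (SE, adjusted p = 0.000382). With the AhR guide deprivation then lowered it, by 0.63 ± 0.18 (SE, adjusted p = 0.0109) on the log2 scale, to 2.93, 2.83 and 2.77 TPM. With the control guide deprivation gave no call for AKR1D1, but a rise of 0.46 with an adjusted p of 0.00787 (limma) without replicate 3 of the controls. Under AhR inhibitor it fell by 0.46 ± 0.17 (SE, adjusted p = 0.0289), a call that did not hold on leaving out any 1 of 5 libraries (replicates 1 and 3 of the controls and all of the deprived cells), with adjusted p from 0.0551 to 0.0869 (limma). The rise in the IDO/TDO experiment came to 0.29, with an adjusted p of 0.0565, when libraries were scaled to a common median.

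AKR7A2 reduces aflatoxin dialdehyde and succinic semialdehyde. It was the member with matches to the NRF2 binding core in its promoter, so that promoter is printed, with the matches in capitals:
AKR7A2, chr1:19312097-19312396, minus strand: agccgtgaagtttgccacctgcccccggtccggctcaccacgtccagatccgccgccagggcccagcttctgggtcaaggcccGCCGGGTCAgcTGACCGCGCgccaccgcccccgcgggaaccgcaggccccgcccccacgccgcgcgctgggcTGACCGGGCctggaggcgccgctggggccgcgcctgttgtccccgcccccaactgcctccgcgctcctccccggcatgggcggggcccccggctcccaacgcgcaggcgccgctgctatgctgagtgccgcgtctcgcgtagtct
The core searched was TGACNNNGC on both strands, and 13.3% of 35116 RefSeq promoter windows of that length (GRCh38.p14) hold it. RefSeq's table here holds no window for AKR1B10, so its promoter was not searched. Of the 9 members with a window only AKR7A2 held the core, with 3 matches starting at positions -167 on the minus strand and -156 and -95 on the plus strand, with the start base as 0. The AhR core GCGTG was in 36.5% of windows and in those of AKR7A2, AKR7A3 and AKR1B1. These letters describe the windows and show no binding.

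AKR7A2 had 19.0, 17.0 and 18.8 TPM in deprived HepG2 cells at day 12, against 11.7, 9.29 and 10.3 TPM in controls, and the log2 difference was 0.41 ± 0.10 at day 9 and 0.76 ± 0.10 (SE) at day 12. At day 3 the groups overlapped, and both sides had lower values by day 12, by -0.29 ± 0.10 in deprived cells and -1.11 ± 0.10 (SE) in controls. The median change of all genes within deprived cells was -0.12. There AKR7A2 lost its call with quantile normalization (-0.12), median scaling (-0.13) and voom (-0.15). In the IDO/TDO experiment it had 19.6, 22.5 and 19.9 TPM in deprived cells, against 13.4, 12.8 and 12.1 TPM in controls, a rise of 0.65 ± 0.079 (SE, adjusted p = 2.17e-06), or 0.36 relative to the median of all genes. The inhibitor changed that effect by -0.75 ± 0.11 (SE, adjusted p = 4.06e-05). With the control guide AKR7A2 rose by 0.42 ± 0.086 (SE, adjusted p = 0.000721), a call lost with voom on the recovered reads (0.20, adjusted p = 0.0659). With the AhR guide it differed by 0.13 ± 0.086 (SE, adjusted p = 0.216), or 0.22 with an adjusted p of 0.0469 (limma) without replicate 1 of its controls. Under AhR inhibitor it rose by 0.80 ± 0.085 (SE, adjusted p = 4.67e-06). In Caco-2 it went the other way, with 7.42, 7.27 and 7.14 TPM in deprived cells, against 11.5, 12.9 and 9.88 TPM in controls, and fell by 0.58 ± 0.11 (SE, adjusted p = 0.00229) on the log2 scale. Whether the lines differ was not tested. AKR7A3, its neighbour, had at most 1.96 TPM and was listed at 0 in 12 of 78 libraries, and 19.9% of the windows at its transcript end occur in AKR7L. In Caco-2, where it passed the filter, it differed by -0.37 ± 0.22 (SE, adjusted p = 0.234).

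Other aldo-keto reductase genes were low. AKR1B15 lies 7682 bases from AKR1B10 on the same strand, and their coding sequences are 86.4% identical. It had 1.16, 1.29 and 1.12 TPM in deprived cells of the IDO/TDO experiment, and all controls were listed at 0. With the AhR guide it had 0.968, 0.847 and 1.01 TPM in deprived cells, against 0.124, 0 and 0.0570 TPM in controls. None of the windows at its transcript end occurs in another family transcript that was searched. KCNAB2, a potassium channel subunit of the same fold, rose with deprivation by 1.32 ± 0.12 (SE, adjusted p = 6.47e-08) in the IDO/TDO experiment, by 1.04 ± 0.10 (SE, adjusted p = 1.23e-06) with the AhR guide and by 1.18 ± 0.10 (SE, adjusted p = 2.34e-07) with the control guide. In Caco-2 KCNAB2 had 1.68, 1.88 and 1.86 TPM in deprived cells, against 2.45, 2.13 and 2.33 TPM in controls, a difference of -0.23 ± 0.13 (SE, adjusted p = 0.176). AKR1C8P, AKR1E2, AKR7L, KCNAB1 and KCNAB3 stayed at or under 2.87 TPM in every library.

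Neighbouring pathways were counted from lists drawn up with earlier results known, so the counts describe and do not test. Of 25 NRF2 targets outside the family 23 passed the filter in HepG2. In deprived cells 17 were higher and 0 lower at day 3 (4.74% of all genes called), and 21 higher and 1 lower at day 12 (52.4%), with a median log2 difference of 1.27, against 0.10 over all genes. In the IDO/TDO experiment 22 rose and 0 fell without inhibitor (67.9%), with a median of 1.79 against 0.30, and with inhibitor 0 rose and 1 fell (1.39%). With either guide 20 rose and 1 fell (53.2% with the AhR guide and 60.7% with the control guide), and in Caco-2 18 of 24 rose and 2 fell (33.7%), with a median of 0.86 against -0.067. Kyn raised 3 and lowered 2 of 23 (11.7%). MGST1, a membrane glutathione transferase, had a log2 difference of 2.35 at day 12 and 2.87 ± 0.070 (SE, adjusted p = 1.5e-14) in the IDO/TDO experiment. FTL, the ferritin light chain, had 2.28 at day 12 and 1.07 ± 0.040 (SE, adjusted p = 7.97e-08) in Caco-2, while ABCC2, an export pump, had -0.18 at day 12.

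Other carbonyl and aldehyde enzymes split. At day 12, where 52.4% of all genes were called, 18 of 36 tested were higher in deprived cells and 9 lower, with a median log2 difference of 0.21 against 0.10 over all genes. In Caco-2 2 of 31 rose and 13 fell (33.7% of all genes), with a median of -0.23 against -0.067. Kyn raised 11 of 34 and lowered 0 (11.7%). PTGR1, which reduces lipid aldehydes and prostaglandins, had 2.72 at day 12 and 1.18 ± 0.071 (SE, adjusted p = 1.61e-06) in Caco-2. ALDH1A1, which oxidises retinaldehyde, had 1.64 at day 12, against -0.79 for the alcohol dehydrogenase ADH6 and -0.77 for ALDH18A1, an enzyme of proline synthesis. Of 12 bile acid genes outside the family 4 were higher and 7 lower at day 12 (again beside 52.4%), with CYP8B1 at -1.07 and BAAT, which conjugates bile acids, at -1.81, while ACOT8 stood at 0.75 and SLC27A2 at 0.34. Of 22 steroid hormone genes 7 were higher and 10 lower (beside the same share), with CYP17A1, the androgen-forming enzyme, at -2.18, UGT2B4 at -1.47, HSD17B10 at 1.34 and CYP19A1 at 1.03.

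Over the 24 HepG2 group means, centred within each table, the genes whose pattern was most like that of AKR1B10 were UGDH (Pearson r 0.984), TXN (0.977), TOMM34 (0.977), TXNRD1 (0.973) and OSGIN1 (0.973), among 4372 genes of at least 10 TPM on average. UGDH, TXN, TXNRD1 and OSGIN1 also stand on the NRF2 list. The means include the experiments on which AKR1B10 was picked, and that list was drawn up with earlier results known. How many of the 4372 genes stand on it was not counted, so the overlap describes and does not test. For AKR1C1 they were TARS (0.801), BAIAP2L1 (0.787), SLC38A1 (0.785), LAP3 (0.784) and FMNL2 (0.784), a looser likeness. Among members AKR1B10 and AKR1C2 correlated at 0.909, AKR1C1 and AKR1C2 at 0.846, and AKR1C4 and AKR7A2 at -0.857. The means share tables and control groups, so these values describe and carry no p.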

How the data were processed

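Polyadenylated RNA was made into libraries with a QuantSeq 3′ kit that primes with oligo(dT), per the labels' protocols. The deposited values are TPM. Per the file headers they were produced by HOMER, which names for each gene a single transcript and how long it is. The submitters' processing notes name STAR, HOMER, Bowtie2, hg38 and mm10 without a role for each, and give no aligner options. Reads from a 3′ kit do not grow with transcript length, so TPM is compared between libraries and not between genes, and only within a table, since AKR1C3, AKR1D1 and AKR7A2 carry different transcripts in different tables. In each library, low TPM times length fell on whole multiples (within 0.1) of the value of 1 read, for 100% of the values tried. This gave 4049600 to 19428100 reads per library in the listed genes. The mean chi-square per gene between replicates was at least 1.99, so every library counts once. The mouse tables were not used here.

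Genes at 1 TPM or more in at least 3 libraries were fitted as log2(TPM + 1) with limma 3.58.1 (R 4.3.3; group means, empirical Bayes with trend and robust options), 1 fit per table and 28 contrasts in all. P-values were two-sided and adjusted over all genes of a table within each contrast (Benjamini-Hochberg), with a threshold of 0.05. Fold changes on this scale understate the change of low genes. Tests were checked on simulated data. The alternatives were quantile and median scaling, pseudocounts of 0.1 and 5, no filter and a filter of 5 TPM, plain empirical Bayes, voom on the recovered reads, each contrast's groups alone, a replicate block, and leaving out each library. The genes named are the 10 members, other family genes, AHR and CYP1A1 as checks, the 5 genes most like AKR1B10 and AKR1C1, and from each pathway list the 2 highest and 2 lowest at day 12 (1 where fewer passed the threshold). Members and lists were chosen with earlier results of these data known. Coding sequences came from GENCODE v29 and promoters from RefSeq. Edited, inhibitor and Kyn groups were tested on their own tables.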

Additional observations from a re-analysis of the deposited data

Results flagged for a closer look

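Effects that differed between arms of an experiment by a test of the difference itself (limma, interaction term, adjusted over all genes) are listed here with their log2 size. In the IDO/TDO experiment the deprivation effect with inhibitor minus that without was -5.15 for AKR1B10, -1.13 for AKR1C2, -0.86 for AKR1D1 and -0.75 for AKR7A2, and it was 1.28 for AKR1B1 and 1.05 for AKR1C4. In the guide experiment the effect with the AhR guide minus that with the control guide was 1.19 for AKR1B1, 0.92 for AKR1C1, 0.67 for AKR1C3 and 0.49 for AKR1C2.

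In the Kyn experiment the Kyn effect with AhR inhibitor minus that without was 1.22 for AKR1C1, 1.10 for AKR1C2 and -0.40 for AKR7A2. The last had an adjusted p of 0.0408 and lost the call without any of 10 single libraries. In Caco-2 at day 9 every deprived library had less AKR7A2 than every control (-0.58), whereas in HepG2 at day 9 every deprived library had more (0.41), and the difference between the lines was not tested.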

How the results depend on the processing

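Of 4114 values for single genes under other settings, 3847 kept direction and side of the threshold, 88 that were called in neither setting changed sign, 104 lost the call, 62 gained it and 13 reversed with a call in at least 1 setting. The reversed values are all in the IDO/TDO experiment. For deprivation without inhibitor they were -0.097 (AKR1C1) and -0.10 (AKR1C3) with median scaling, and -0.15 for both with voom on recovered reads. For the inhibitor in deprived cells they were 0.18 and 0.15 with median scaling and 0.23 and 0.19 with voom. For the difference between effects they were 0.26, 0.28 and 0.32 for AKR1A1 with quantile normalization, median scaling and voom, and 0.20 for AKR1C1 and 0.20 for AKR1C3 with voom. The median of all genes lay 0.30 above 0 in deprived cells there, and 0.26 to 0.27 below 0 for the inhibitor and the difference.

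The control-guide effect called 8 members with median scaling (3 higher, 5 lower), against 5. Kyn with AhR inhibitor called 0 with quantile normalization, median scaling, no filter or voom, against 1, and 0 to 1 without single libraries. The AhR guide in deprived cells called 1 to 3 without single libraries, against 3, with 1 when replicate 1 of the deprived cells with the control guide was left out. The cause was not tested.

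Replicate numbers did not pair the libraries: correlations of same-numbered deviations ran from -0.108 to 0.187, and no comparison had every pair above 0.1. With the numbers as a replicate block 240 of 246 values kept their call or lack of one. AKR1D1 in the guide experiment gained a difference between effects of -0.82 (adjusted p = 0.0354), and the AKR7A2 difference with Kyn, -0.40, had an adjusted p of 0.0539. That AKR1D1 difference was also called with quantile normalization (-0.81, adjusted p = 0.0435, limma), median scaling, a pseudocount of 5 and voom (-1.04, adjusted p = 0.0108). It came to -1.09 with an adjusted p of 0.000936 (limma) without replicate 3 of the controls with the control guide. AKR1C4, AKR1D1 and AKR7A3 had at most 62, 175 and 18 reads, which limits what their differences can show.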
